A study of Homo sapiens with 2 samples.

Results

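The 10 chemokine genes described here were CCL3, CCL4, CCL5, CCL20, CXCL8, CXCL9, CXCL10, CXCL11, CXCL13 and XCL1. They were read through every probe set that the platform annotation assigns to their symbols, 16 of the 54675 probe sets on the array. Signals came from 2 Affymetrix arrays of KG1, a line of human acute myeloid leukaemia that resembles early progenitors. The siRNA-Tbet array came from cells electroporated with 1.98 µg of siRNA against T-bet, the transcription factor encoded by TBX21. The siRNAc array came from cells that received the same mass of a control siRNA, and all cells rested for 5 h and then received interleukin-18 at 10 ng/ml for 12 h. No array without interleukin-18 or without transfection was analysed here, so no value shows what interleukin-18 or electroporation did. With 1 array for each siRNA there is neither a replicate error nor a p-value, the number of arrays limits the precision, and less of a transcript per cell cannot be told apart from fewer cells that make it.

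Chemokines are small secreted proteins that guide leukocytes by binding receptors coupled to G proteins. CXCL9, CXCL10 and CXCL11 are the ligands of CXCR3, a receptor of activated T and natural killer cells that T-bet is known to support, and they are induced by interferon-γ, in part through interferon regulatory factors. CCL3, CCL4 and CCL5 attract monocytes and lymphocytes and are made by activated lymphocytes and myeloid cells, while CXCL8 and CCL20 are typical products of NF-κB signalling, the pathway that interleukin-18 engages through MYD88. XCL1 is a product of natural killer and CD8 T cells, and CXCL13 draws B cells to follicles.

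The upstream sequences of the 3 CXCR3 ligands are shown because these clustered genes are known to be induced by interferon. All had lower signals with siRNA-Tbet, by amounts from 2.93% to 25.4%, where 53.5% of all measured genes were lower. That of CXCL8 is shown as a gene known as an NF-κB product. What drives any of these genes in KG1 was not tested. Each is the 250 bases before the annotated start, 5′ to 3′ on the gene's strand, from RefSeq on GRCh38.p14. CXCL9 is at chr4:76007510-76007759 on the minus strand, CXCL10 at chr4:76023498-76023747 on the minus strand, CXCL11 at chr4:76036071-76036320 on the minus strand and CXCL8 at chr4:73740319-73740568 on the plus strand. Capitals mark matches to the motifs described in the paragraph that follows the sequences.
CXCL9: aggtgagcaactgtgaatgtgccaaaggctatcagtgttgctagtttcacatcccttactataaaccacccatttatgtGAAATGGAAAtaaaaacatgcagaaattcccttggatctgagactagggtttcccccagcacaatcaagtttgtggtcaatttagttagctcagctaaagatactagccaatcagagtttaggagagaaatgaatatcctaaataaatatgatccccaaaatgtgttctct
CXCL10: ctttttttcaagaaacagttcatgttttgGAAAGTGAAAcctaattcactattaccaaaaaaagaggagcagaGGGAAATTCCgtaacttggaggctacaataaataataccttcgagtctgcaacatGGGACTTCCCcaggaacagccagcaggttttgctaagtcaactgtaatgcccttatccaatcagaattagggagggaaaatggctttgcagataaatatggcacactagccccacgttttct
CXCL11: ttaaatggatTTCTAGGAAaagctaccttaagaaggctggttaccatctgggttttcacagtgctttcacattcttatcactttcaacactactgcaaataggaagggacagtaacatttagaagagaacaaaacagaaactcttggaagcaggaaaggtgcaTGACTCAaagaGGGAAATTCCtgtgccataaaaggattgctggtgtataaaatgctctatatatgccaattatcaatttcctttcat
CXCL8: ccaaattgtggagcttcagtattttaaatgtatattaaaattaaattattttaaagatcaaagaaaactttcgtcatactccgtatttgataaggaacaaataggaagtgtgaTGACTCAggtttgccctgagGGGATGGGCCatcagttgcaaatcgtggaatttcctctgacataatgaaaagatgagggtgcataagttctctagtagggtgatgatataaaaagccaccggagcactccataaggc

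In these 4 windows the interferon-stimulated response element (ISRE), searched as GAAA, any 2 bases and GAAA again, matched once upstream of CXCL9, 171 to 162 bases before the start, and once upstream of CXCL10, 221 to 212 bases before it. The NF-κB motif, searched as GGGA, any 4 bases and then CC, matched at 2 places for CXCL10 and at 1 place each for CXCL11 and CXCL8. The STAT-binding GAS motif, TTCNNNGAA, matched upstream of CXCL11, and the AP-1 motif, TGANTCA, matched upstream of CXCL11 and CXCL8. The T-box motif, searched as GGTGTGA, had 0 matches in the windows of the members, which says only that these letters are not in them. Both strands were searched, and no match overlapped one of another motif. Of 35116 annotated promoters of the same length, 3.02% held the ISRE letters, 22.6% the NF-κB letters, 6.57% the GAS letters, 6.57% the AP-1 letters and 2.76% the T-box letters. The promoter table held 7 of the 10 members, CCL3, CCL20, CXCL8, CXCL9, CXCL10, CXCL11 and CXCL13, with 10 starts in all. CCL20 had 3 NF-κB matches, CXCL13 had 1 at its second start, and the 3 starts of CCL3 had 0 matches to any of the motifs. Only stretches with exactly the searched letters are marked, so a binding site that departs from them stays in lower case. These matches describe the sequences and do not show binding.

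**Figure D1:**
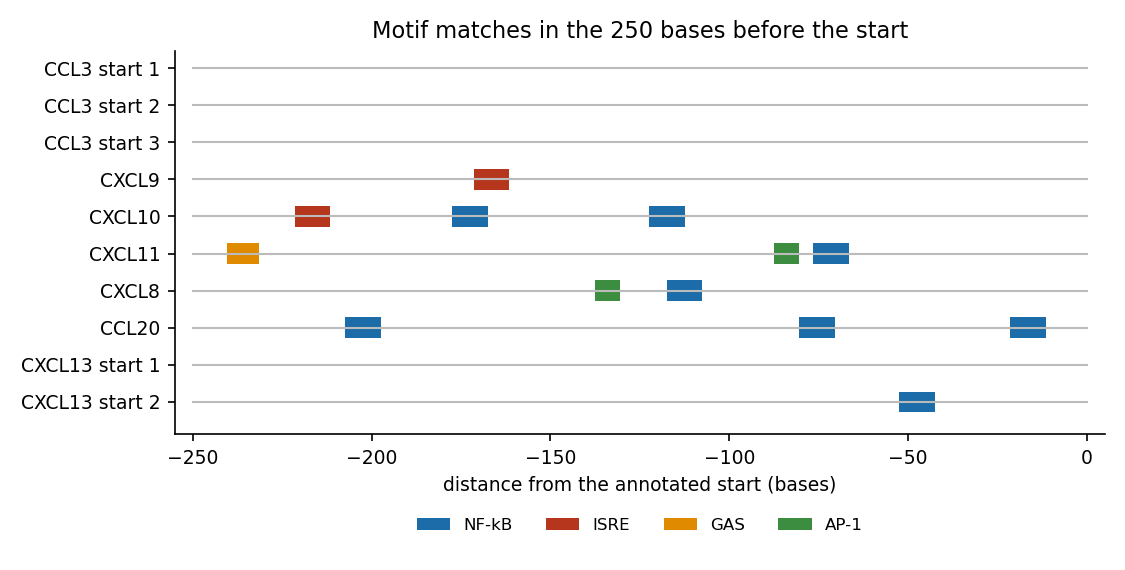
Motif matches in the 250 bases before each annotated start of the members in the promoter table; the x axis is the distance from the start in bases and each coloured box is a match on either strand. ISRE matches appear for CXCL9 and CXCL10, and 3 NF-κB matches for CCL20.

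No measured probe set of the members differed by 1.5-fold or more between the arrays, and the members did not move in a common direction. Of the 16 probe sets, 14 are assigned to 1 gene and 2 to several genes. A probe set counted as measured when its signal was above 146 on at least 1 array, the higher of the 2 arrays' medians, and lower signals were raised to that floor. By this rule 12 of the 14 probe sets were measured, and they represented 8 of the 10 genes. Read by 1 probe set each, 3 genes were higher and 5 were lower with siRNA-Tbet, beside 46.5% of all 12309 measured genes higher and 53.5% lower. The median log2 ratio of the 8 genes, siRNA-Tbet over siRNAc, was -0.07, and that of all measured genes was -0.02. A ratio of at least 5 to 4 between the arrays was seen in 2 genes that were lower with siRNA-Tbet, CCL4 and CXCL9, and in 2 that were higher, CXCL8 and CXCL13. Among all measured genes 11.1% were lower and 7.83% were higher by that much. At 1.5-fold the count of members was 0, beside 2.07% of all measured genes higher and 2.93% lower, and the largest fold of any measured member probe set was 1.47, at the one shared by XCL1 and XCL2.

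TBX21 itself read 1839 after siRNA-Tbet and 3581 after siRNAc, so that 51.3% of the control signal remained. Where a pair of signals is given below, the siRNA-Tbet array comes first. KG1 identity was read from marker genes. CD34, the progenitor antigen, had signals of 17130 and 15839, and FLT3 and SPN were also measured, while KIT was below the floor on both arrays and CD33 was not analysed here. Some lymphoid markers passed the floor too. All 4 natural killer markers were measured, with a summed signal of 13795 against 15363, and 3 of 5 T cell markers, with 16625 against 14531. Of 19775 genes on the array 12309 were measured. The same floor was passed by 2 of 3 listed B cell markers and 2 of 3 epithelial markers, with summed signals of 616 against 713 and 539 against 432. Passing the floor alone therefore does not show a lineage. NKG7 makes up most of the natural killer sum (12368 against 13262), and KLRD1 was above the floor only on the siRNAc array. CD3D makes up most of the T cell sum (16036 against 13657). CD2 lay on the other side at 339 against 663, 1.96-fold lower (log2 ratio -0.97, technical spread 0.33). The T cell markers CD3G and CD8A were below the floor on both arrays.

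**Figure D2:**
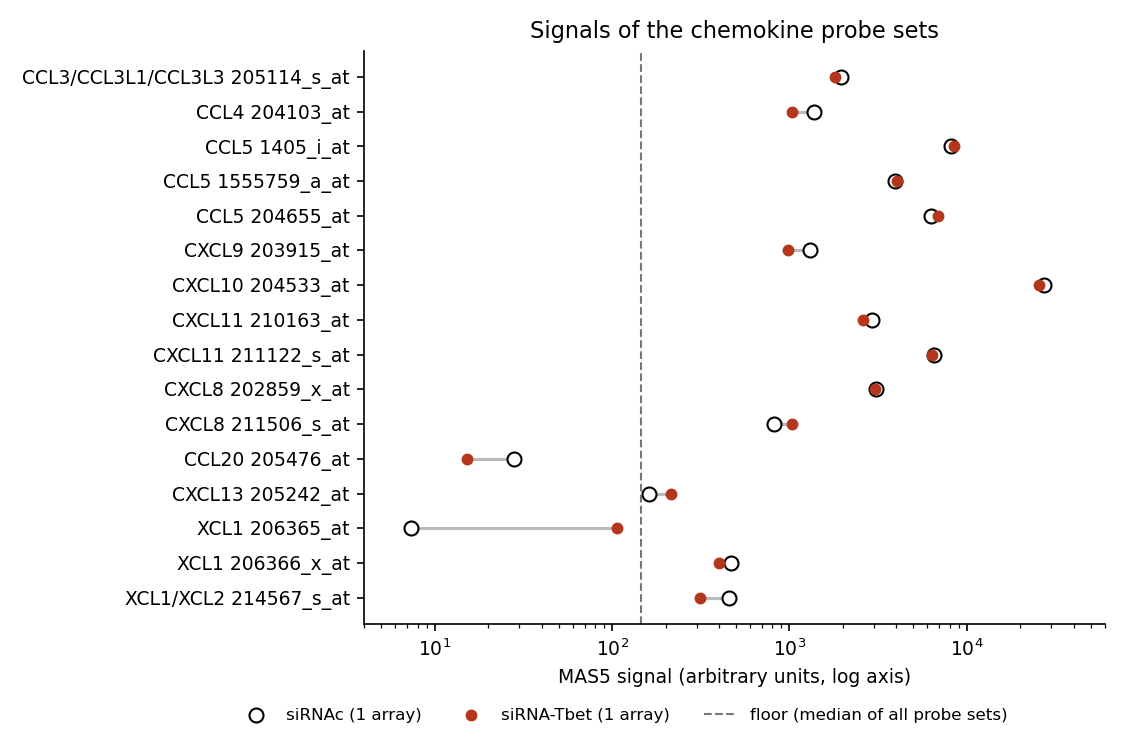
MAS5 signal of each of the 16 chemokine probe sets on the siRNA-Tbet array (filled) and the siRNAc array (open), in arbitrary units on a log axis; the dashed line is the floor of 146. The points of CCL5, CXCL10 and CXCL11 nearly coincide, CCL4 and CXCL9 are lower with siRNA-Tbet, and CCL20 and 1 XCL1 probe set lie below the floor.

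The 3 CXCR3 ligands had lower signals with siRNA-Tbet at all 4 of their probe sets, by amounts from 2.93% to 25.4%. Among all measured genes 53.5% were lower, and 2 of the 4 probe sets read the same gene, CXCL11. CXCL9 read 975 after siRNA-Tbet and 1308 after siRNAc, 1.34-fold lower (log2 ratio -0.42). The technical spread at that signal, the SD of log2 ratios between probe sets of the same gene, was 0.22, so the difference was 1.9 times that spread. Of the 2895 probe sets in the same decile of signal, 5.01% had a ratio at or below that of CXCL9. CXCL9 lay near the 5th percentile of features measured at like brightness, and a change caused by the siRNA and variation between cultures cannot be told apart with 1 pair of arrays.

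CXCL10 read 25708 after siRNA-Tbet and 27417 after siRNAc, 6.23% lower (log2 ratio -0.09), within the technical spread of 0.12. With quantile normalization or with the lowess trend removed the log2 ratio was -0.16, beyond that spread. Its signal was above 99.1% of the probe sets of the siRNA-Tbet array, where fluorescence can be compressed and differences understated. CXCL11, which binds the same receptor, had signals of 6379 and 6571 at its brighter probe set, 2.93% lower and within the technical spread of 0.15. The other probe set of CXCL11 had 2585 and 2916, 11.3% lower, about as large as the technical spread of 0.17. The log2 ratios of -0.04 and -0.17 differed by 0.13, less than the SD of 0.21 between such pairs of probe sets. Under the 3 other scalings the ratios of the 4 probe sets stayed below 0. IFNG, which encodes interferon-γ, a known inducer of these ligands, read 31243 against 35136, 11.1% lower (log2 ratio -0.17, technical spread 0.12). Of the probe sets of like signal, 7.05% had a ratio at or below that of IFNG. Its signal was brighter still than that of CXCL10, so the limit on very bright signals holds here too. Any part of IFNG in the ligand values was not tested. The receptor CXCR3 had signals of 263 and 390, 1.48-fold lower (log2 ratio -0.57, technical spread 0.40), but 180 and 191 at its second probe set (log2 ratio -0.08).

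CCL3, CCL4 and CCL5 did not share a direction. CCL4 read 1027 after siRNA-Tbet and 1368 after siRNAc, 1.33-fold lower (log2 ratio -0.41). This was 1.9 times the technical spread of 0.22, and 5.15% of the probe sets of like signal had a ratio at or below it. CCL4 has near-identical gene copies that its probe set may also read. The probe set that names CCL3 also names its copies CCL3L1 and CCL3L3, so no signal belongs to CCL3 alone. That shared probe set read 1796 against 1954, 8.05% lower (log2 ratio -0.12), within the technical spread of 0.20. CCL3 and CCL4 are neighbours in the RefSeq annotation, and the difference of CCL4 was the larger.

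CCL5, also called RANTES, was read by 3 probe sets, and none differed by more than 9.37%. Their signals were 8460 against 8188, 4038 against 3949, and 6839 against 6253. The log2 ratios of 0.05, 0.03 and 0.13 were all on the higher side and all within their technical spreads of 0.12 to 0.15. The pairwise differences between them were at most 0.10, below the SD of 0.17 to 0.21 between such pairs. CCL5 had the most measured probe sets of the members, and they gave nearly the same ratio.

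**Figure D3:**
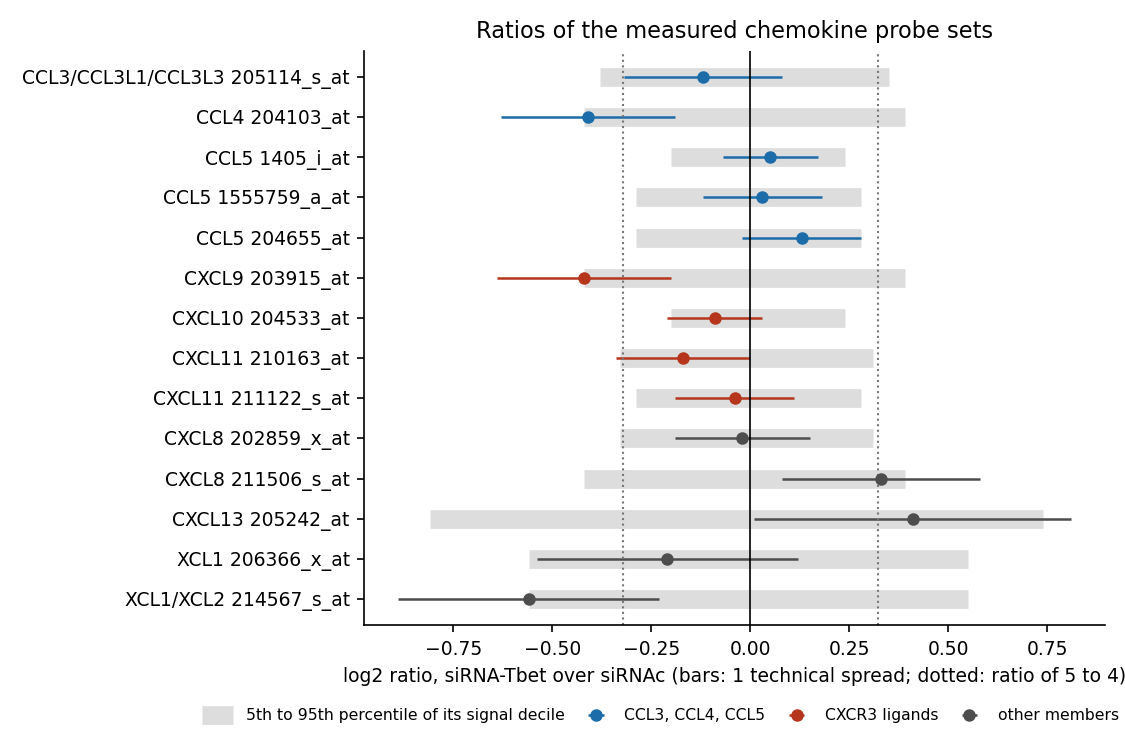
Log2 ratio of siRNA-Tbet over siRNAc for the 14 measured probe sets, 12 of 1 gene and 2 of several; bars are 1 technical spread, grey bands the 5th to 95th percentile of probe sets in the same decile of signal, and dotted lines a ratio of 5 to 4. CCL4, CXCL9 and the shared XCL1/XCL2 probe set lie at the lower edge of their bands, and the others lie inside.

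CXCL8, the neutrophil attractant interleukin-8, was read differently by its 2 probe sets. The probe set that represents the gene, with the suffix _s_at, read 1029 against 821, 25.4% higher (log2 ratio 0.33, technical spread 0.25). The probe set with the suffix _x_at, whose probes can cross-hybridise, had 3043 and 3080 (log2 ratio -0.02). The 2 ratios differed by 0.34, beside an SD of 0.29 between such pairs, so the direction of CXCL8 was not settled by its own probe sets. CXCL8 signals through CXCR1 and CXCR2. CXCR1 was below the floor on both arrays and CXCR2 just above it on the siRNA-Tbet array, with 149 against 129.

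CCL20, the ligand of CCR6, was below the floor on both arrays, at 15.1 against 27.9, so no ratio is given. CXCL13 read 214 against 161, 1.33-fold higher (log2 ratio 0.41). At that low signal the technical spread was 0.40, and 28.2% of the probe sets of like signal were higher by a ratio of at least 5 to 4. The CXCL13 difference was about as large as the spread between probe sets of a gene. The receptors CCR6 and CXCR5 were below the floor on both arrays as well.

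XCL1, or lymphotactin, read 402 against 466 at an _x_at probe set, 1.16-fold lower (log2 ratio -0.21, technical spread 0.33). A probe set assigned to XCL1 and its near-identical neighbour XCL2 had 312 and 459, 1.47-fold lower (log2 ratio -0.56, technical spread 0.33), and 5.15% of the probe sets of like signal had a ratio at or below it. The plain XCL1 probe set was below the floor on both arrays, with 106 and 7.33, and so has no usable ratio. Its unfloored signals lie in the opposite direction. XCR1, the receptor of XCL1, was below the floor on both arrays. Some markers of blood cell types that make CCL4 or XCL1 were lower with siRNA-Tbet, where 53.5% of all measured genes were lower. Of the natural killer markers, NCAM1 had 550 against 862, KLRF1 842 against 1026 and NKG7 12368 against 13262. The NKG7 log2 ratio of -0.10 was within its technical spread of 0.12. KLRD1 was at least 1.45-fold lower (35.3 against 212). It passed the floor only on the siRNAc array, so once counted it could only come out lower. Of the monocyte markers, LYZ had 684 against 965 (log2 ratio -0.50), and CD14 and FCN1 were below the floor on both arrays. CSF1R had 144 against 220 and, like KLRD1, passed the floor only on the siRNAc array. Of the measured T cell markers, CD2 was lower and CD3D and CD3E (250 against 211) were higher. The part of these markers in the CCL4 and XCL1 values was not tested.

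Among the other chemokine ligands few were measured. Of 38 listed, 30 had a probe set assigned to them alone and 5 of these passed the floor, beside 12309 of all 19775 genes. Of the 5, 3 were higher and 2 lower, beside 46.5% of all measured genes higher and 53.5% lower. Their median log2 ratio was 0.07. A ratio of 5 to 4 was reached by 0 of them, beside 7.83% of all measured genes higher and 11.1% lower. A list of 5 genes is too short to differ clearly from those shares. CCL1, a ligand of CCR8, had 992 against 1191 (log2 ratio -0.26, technical spread 0.22). CXCL2, a neutrophil attractant related to CXCL8, had 1532 and 1590 at an _x_at probe set. Its other probe sets were below the floor on both arrays, with 13.0 against 52.5 and 51.3 against 61.0. CXCL12, the ligand of CXCR4, had 180 and 157, close to the floor, and CCL28 had log2 ratios of 0.07, 0.28 and -0.28 at its 3 measured probe sets.

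Of 23 listed chemokine receptors 21 had a probe set assigned to them alone and 7 were measured. Of these, 3 were higher and 4 lower, where 46.5% of all measured genes were higher and 53.5% lower. The median log2 ratio of the 7 was -0.02 and turned to 0.01 under each of the 3 other scalings. At a ratio of 5 to 4 or more, 2 were higher, CXCR4 and ACKR3, and 2 were lower, CXCR3 and CCR7. Among all measured genes 7.83% were higher and 11.1% lower by that much. CXCR4, which retains progenitors in bone marrow, had 3139 against 2140, 1.47-fold higher (log2 ratio 0.55, technical spread 0.18). Its other probe sets had 1920 against 1523 and 1835 against 1578, so all 3 were on the higher side. ACKR3, an atypical receptor that also binds CXCL11 and CXCL12, had 251 against 193 (log2 ratio 0.38, technical spread 0.40). Of the probe sets of like signal, 28.2% were higher by a ratio of at least 5 to 4. The other ACKR3 probe sets were below the floor on both arrays. CCR7, the homing receptor of mature dendritic cells, had 594 against 857, 1.44-fold lower (log2 ratio -0.53, technical spread 0.30). CCR1, which binds CCL3 and CCL5, had 355 against 377 at its brighter probe set and 173 against 261 at the other.

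The listed genes of interferon-γ signalling and of interleukin-18 and NF-κB signalling differed in both directions at their brightest probe sets. Among all measured genes 46.5% were higher and 53.5% lower. Any part of these genes in the chemokine values was not tested. In interferon-γ signalling 7 of 8 listed genes were measured, 4 higher and 3 lower, with a median log2 ratio of 0.02. A ratio of 5 to 4 was reached by 0 of them, beside 7.83% of all measured genes higher and 11.1% lower. IRF1, a transcription factor that binds the ISRE, had 8589 against 9508, 9.67% lower, but 3142 against 2919 at its other probe set. The receptor subunit gene IFNGR1 had 9916 against 8977, and its other probe sets disagreed in direction, with 4909 against 3944 (log2 ratio 0.32) and 167 against 265 (log2 ratio -0.67). The kinase gene JAK1 had 9377 against 9217. In interleukin-18 and NF-κB signalling 13 of 14 were measured, 5 higher and 8 lower, with a median of -0.05. IL18RAP, a subunit of the interleukin-18 receptor, had 16145 against 16673, MYD88 9637 against 10081, NFKB1 8654 against 8609 and the inhibitor gene NFKBIA 19113 against 20808. NFKB2 was 1.28-fold higher (log2 ratio 0.36) and RELA 20.2% lower (log2 ratio -0.33) at the brighter probe set, each with a technical spread of 0.17. Of the probe sets of like signal, 3.32% had a ratio at or above that of NFKB2 and 3.21% at or below that of RELA. In each gene the second measured probe set lay on the other side (log2 ratios -0.07 and 0.28).

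**Figure D4:**
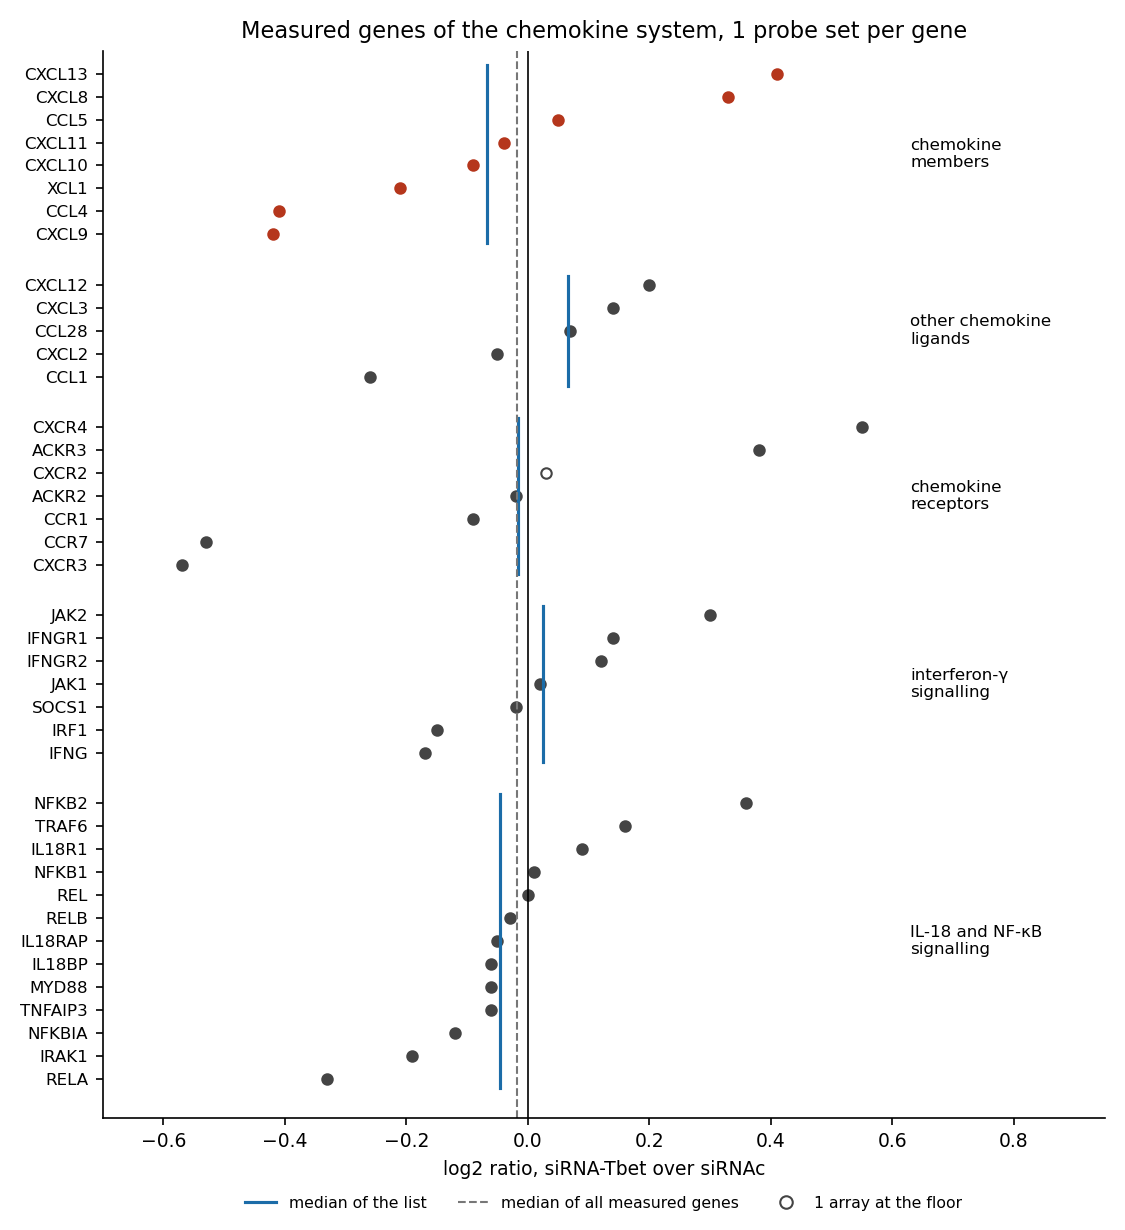
Log2 ratio of siRNA-Tbet over siRNAc for the measured genes of 5 lists, 1 probe set per gene; vertical bars are list medians, the dashed line is the median of all measured genes (-0.02), and the open point has 1 array at the floor. Members range from -0.42 for CXCL9 to 0.41 for CXCL13, and receptors from -0.57 for CXCR3 to 0.55 for CXCR4.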

How the data were processed

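The deposited values are linear signal intensities made by the authors with MAS5, per the submitters' processing notes, which as used here name no version. Each deposited array of intensities had a trimmed mean of 1000 (2% removed at each end), and no further normalization was applied. MAS5 subtracts mismatch signal, which makes low intensities noisy. Names came from the platform annotation, and symbols were updated by Entrez number through RefSeq GRCh38.p14: 41091 non-control probe sets had 1 gene (41037 matched RefSeq), 1801 several and 11721 none. The 62 control probe sets were left out.

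Ratios were taken as log2 of siRNA-Tbet over siRNAc after raising signals to the common floor of 146. A gene was read by its brightest measured probe set of 1 gene, avoiding _x_at where another was measured. For the technical spread, each gene with several measured probe sets gave the log2 ratio of its brightest minus that of its next brightest; the SD of these differences over the square root of 2 was taken in 10 signal bins (0.40 in the dimmest, 0.12 in the brightest). Differences between cultures, RNA extractions or arrays are not part of it. The procedure was tested on simulated data (Python 3.11.15, numpy 2.4.6, pandas 2.3.3, statsmodels 0.14.6).

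The genes, lists and promoter sequences shown were chosen with earlier results of these data known; the motif letters and the 4 promoters shown were also chosen without a test. Beside the members, TBX21 and IFNG, the text names genes of each list with a ratio of at least 5 to 4 or were among the 4 of highest signal. CXCR1, CCR6, CXCR5, XCR1, CXCR2 and the marker genes are named as receptors of members or as markers, outside that rule. Alternatives were 3 other scalings, 3 other floors and 3 other choices of probe set.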

Additional observations from a re-analysis of the deposited data

How the results depend on the processing

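No paired analysis was possible because each group holds 1 array; for the same reason no array could be left out. Over the main setting and 9 alternatives, the number of member genes higher ran from 2 to 4 and lower from 4 to 6, and their median log2 ratio from -0.10 to 0.00. Every measured member probe set kept its direction under the scalings and floors tried, except the _x_at one of CXCL8, which came to 0.00 with equal array medians, and the floor at the 75th percentile left XCL1 and CXCL13 without a value and lowered the ratio of CXCL8 to 0.17, with siRNAc at the floor. The gene-level direction of XCL1 turned to higher with a floor at the 25th percentile (log2 ratio 1.51) or none (3.85), since its dim plain probe set then replaced the _x_at one. That of CXCL8 turned to -0.02 when _x_at probe sets were allowed. The median of the other chemokine ligands was -0.09 over 20 genes with the 25th percentile floor, -0.16 over 2 genes under the 75th percentile floor and -0.26 over 30 genes without any floor, and that of the receptors was 0.11 over 18 genes with the 25th percentile floor, 0.16 over 21 genes without any floor and 0.55 under the 75th percentile floor, where 1 gene, CXCR4, was left. Signals near the floor, as for CXCL13, XCL1 and most receptors, limit what can be read.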
